A study of Mus musculus with 12 samples.

Results

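Imprinted and fetal growth genes were followed across 12 RNA-seq libraries of primary mouse rib chondrocytes, the cells that build and maintain cartilage. The list named 10 genes: the imprinted genes Cdkn1c, Mest, Dlk1, Peg3, Plagl1, Grb10 and H19, and the IGF2 mRNA-binding protein genes Igf2bp1, Igf2bp2 and Igf2bp3. They were matched by symbol to the 17922 genes of the table, where 9 were found and all 9 were tested in every comparison. H19 was not analysed here.

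The libraries fall into 4 groups of 3. The LDH set comes from mice at postnatal day 5 (P5): its knockouts carried Col2-Cre, a recombinase active in cells that use the type II collagen promoter, with both Ldha alleles floxed and 1 functional Ldhb allele, and its controls were littermates. The Acly set comes from embryos at E18.5: its knockouts carried Col2-Cre and 2 floxed Acly alleles, again beside littermate controls. In both sets the strain was C57BL/6-dominant mixed and the cells, digested from the ribs with collagenase, spent about a day in serum-containing culture. Which alleles or Cre the controls carried, and whether a sample is 1 animal or a pool, is not given in the sources used here. P-values therefore measure the spread between these samples, which may in part be technical.

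An imprinted gene is transcribed mainly from the copy inherited from 1 parent, often because DNA methylation laid down in the germ line differs between the parental copies. Several imprinted genes set fetal size: paternally expressed ones such as Igf2, Dlk1, Mest and Peg3 tend to favour growth, and maternally expressed ones such as Cdkn1c, Grb10 and H19 tend to restrain it. Many of them are abundant in fetal tissue and decline after birth. The Igf2bp proteins bind Igf2 and other mRNAs, are themselves mostly fetal, and are textbook targets of the let-7 microRNAs, whose maturation LIN28 blocks in early development.

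Matches to the let-7 seed are shown first, since 4 members hold them and let-7 is the textbook regulator of the Igf2bp mRNAs. The let-7 guide from RefSeq is printed with its seed, bases 2 to 8, in capitals. Below it stand all matches found in the members, each within 22 bases of the 3′ untranslated region (UTR) of a GENCODE M21 transcript, with the 7 letters complementary to the seed (CTACCTC, searched on the transcript strand) in capitals.
mmu-let-7a-5p: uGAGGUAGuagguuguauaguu
Igf2bp1, UTR base 1715: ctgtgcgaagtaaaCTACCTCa
Igf2bp1, UTR base 4136: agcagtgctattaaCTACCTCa
Igf2bp1, UTR base 4730: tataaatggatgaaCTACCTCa
Igf2bp1, UTR base 5353: cttttggttttaatCTACCTCt
Igf2bp2, UTR base 1313: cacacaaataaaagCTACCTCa
Igf2bp3, UTR base 548: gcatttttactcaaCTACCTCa
Peg3, UTR base 616: gagtgttctgtcccCTACCTCt

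All 9 let-7 family guides searched (let-7a to let-7g, let-7i and miR-98) share this seed. Igf2bp1 held 4 of the 7-letter matches in a 3′ UTR of 6337 bases, and 0.0% of 217 genes with a UTR of like length held as many. Igf2bp2 and Igf2bp3 held 1 match each, as 11.7% and 14% of genes of like length held at least 1. Peg3 also held 1, where 22.4% of genes of like length did, and the other 5 members analysed held 0. A match describes letters only, and mature microRNAs were not measured in these polyadenylated RNA libraries.

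Promoter windows were available in RefSeq (GRCm38.p6) for 7 members, as 10 windows of 300 bases that run from 250 bases before the transcription start to 50 after it. CpG is the dinucleotide that carries the parental methylation marks, and the windows are shown for Mest (1 of its 3) and Peg3, paternally expressed members with large differences between the ages, with each CpG in capitals.
Mest, chr6:30737800-30738099, plus strand: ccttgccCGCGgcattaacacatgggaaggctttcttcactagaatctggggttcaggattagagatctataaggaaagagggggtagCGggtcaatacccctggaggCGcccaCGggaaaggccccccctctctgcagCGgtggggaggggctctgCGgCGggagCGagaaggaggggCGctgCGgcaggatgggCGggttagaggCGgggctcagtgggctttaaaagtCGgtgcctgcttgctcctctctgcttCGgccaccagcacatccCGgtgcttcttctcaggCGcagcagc
Peg3, chr7:6730370-6730669, minus strand: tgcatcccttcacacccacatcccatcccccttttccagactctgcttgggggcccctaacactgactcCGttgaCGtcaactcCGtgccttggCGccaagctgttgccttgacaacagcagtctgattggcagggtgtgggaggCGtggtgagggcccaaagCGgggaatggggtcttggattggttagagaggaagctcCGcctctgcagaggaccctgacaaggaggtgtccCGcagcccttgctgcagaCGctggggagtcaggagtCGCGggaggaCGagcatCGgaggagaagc

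The Mest window held 17 CpGs and the Peg3 window 13, counts that 31.4% and 37.9% of all 32851 promoter windows reached. The Dlk1 window held 9. Among members whose level differed little between the ages, the Igf2bp2 window held 47 and the denser of 2 Grb10 windows 45, counts reached by 1.44% and 1.93% of windows. The other Grb10 window held 9, and the other Mest windows 17 and 8. The Igf2bp3 and Plagl1 windows held 25 and 26, and Cdkn1c had no window. A relation of CpG number to the age difference was not tested. Methylation was not measured.

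Facts of the whole series come from the same table. Each library held 26362407 to 28154143 expected counts, so 3 counts, used here as the lowest level counted as detected, equal 0.107 to 0.114 counts per 1000000 (CPM). Levels below are CPM after TMM scaling over all 12 libraries unless transcripts per 1000000 (TPM), a scale per transcript length, is named. The floxed genes were lower in their knockouts. Ldha was at 91.8 ± 7.03 CPM in LDH knockouts against 894 ± 51.3 CPM in their controls, and Acly at 69.9 ± 18.8 against 187 ± 4.69 CPM (SD, n = 3). Ldhb was not lower: every LDH knockout was above every LDH control, at 16.0 ± 1.16 against 12.4 ± 0.604 CPM. That difference did not pass by edgeR (adjusted p = 0.115). Chondrocyte markers summed to between 8542 and 29761 CPM in all 12 libraries. Acly knockout replicate 2 stood apart, with a fibroblast and perichondrium marker sum of 1731 CPM against 4039.5 and 4071 CPM in the 2 other knockouts of its group.

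**Figure D1:**
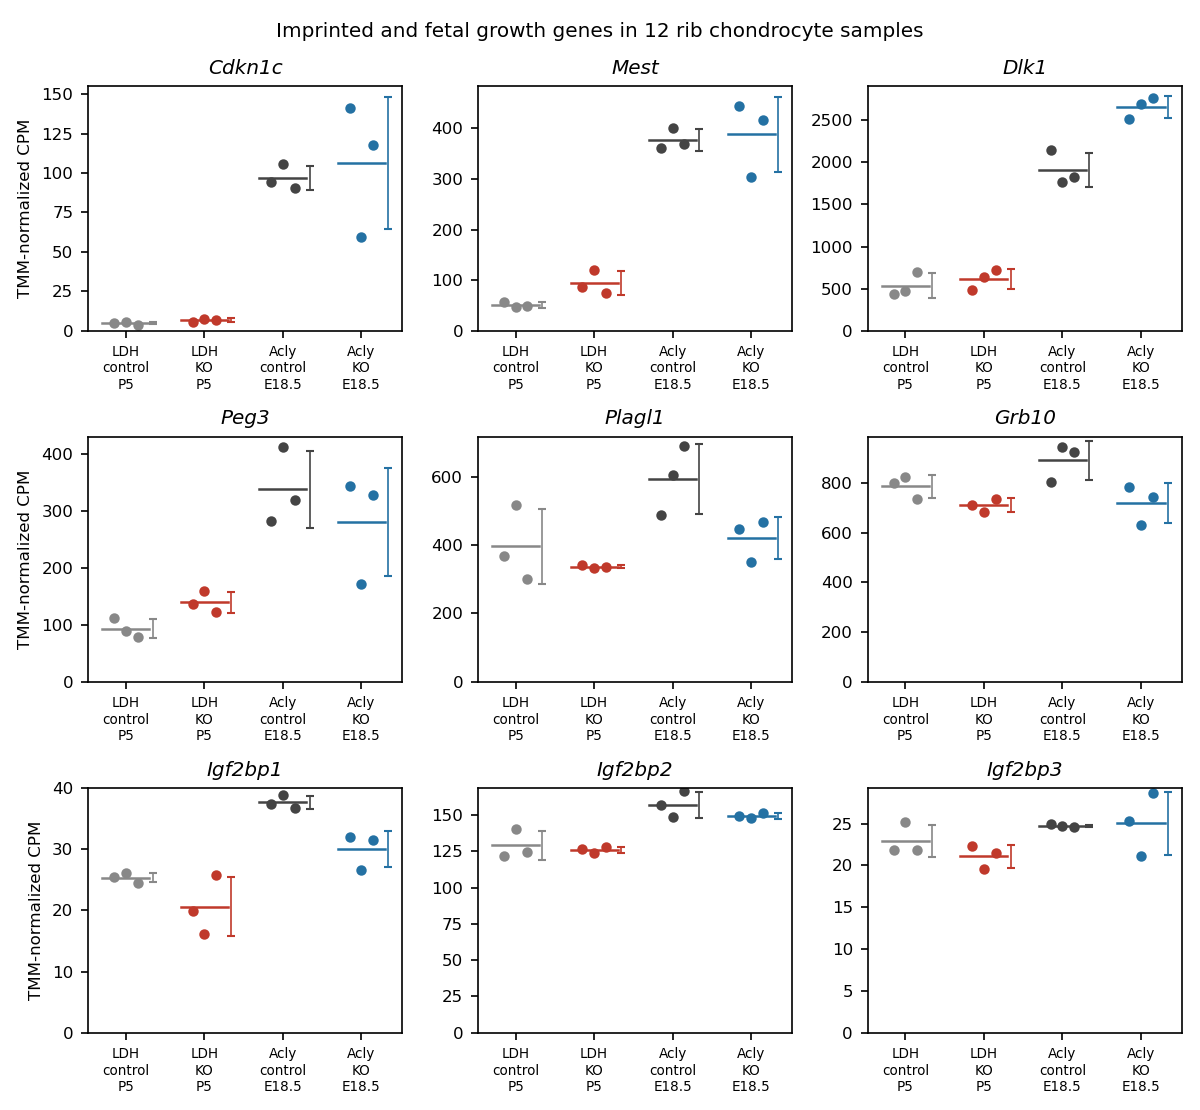
Level of each of the 9 members analysed (vertical axis, TMM-normalized CPM from 0) in each library, by group (horizontal axis). Points are libraries, horizontal lines group means and bars 1 SD (n = 3). Cdkn1c, Mest, Dlk1, Peg3, Igf2bp1 and Igf2bp2 are higher in every E18.5 library than in every P5 library.

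Per transcript length, Dlk1 was the most abundant member in every group. It encodes a secreted and membrane-bound EGF-repeat protein related to Notch ligands that holds back differentiation of fat and mesenchymal precursors. Its mean was 574 ± 125 TPM in LDH controls and 2335 ± 168 TPM in Acly controls (SD, n = 3), where it ranked number 60 of all genes in the table. For scale, Igf2, the fetal growth factor whose mRNA the Igf2bp proteins bind, was at 778 ± 48.6 and 2567 ± 148 TPM in the same groups.

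The order of the members differed between the ages mainly in the places of Cdkn1c and Mest. In LDH controls the order after Dlk1 was Grb10, Plagl1, Igf2bp2, Mest, Peg3, Igf2bp3, Igf2bp1 and Cdkn1c, with no overlap between neighbours in TPM except for Igf2bp1 and Cdkn1c, at 5.42 ± 0.390 and 4.61 ± 0.934 TPM. In Acly controls the order after Dlk1 was Grb10, Mest, Plagl1, Cdkn1c, Igf2bp2, Peg3, Igf2bp3 and Igf2bp1, and the pairs Grb10 with Mest and Igf2bp2 with Peg3 overlapped. Cdkn1c was thus last of 9 in P5 controls and number 5 in E18.5 controls, at 105 ± 12 TPM. Igf2bp1 and Igf2bp3 stayed at the low end in all groups, with means between 4.34 and 11.6 TPM.

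The control groups were compared to describe the 2 ages, E18.5 over P5. In this comparison age, mouse line, litter and any library batch cannot be told apart. Of the 9 members tested, 7 were higher in Acly controls by edgeR at an adjusted p under 0.05 and 0 were lower. The background is wide: 29.4% of all 14251 genes tested were higher and 55.0% differed in either direction. At least a 2-fold higher level with the same test was found for 4 members, and for 16.6% of all genes. In 6 members every Acly control was above every LDH control, as in 34.7% of all genes. The median log2 fold change was 0.59 over the members and 0.02 over all genes.

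Cdkn1c encodes p57, an inhibitor of cyclin-dependent kinases that chondrocytes use to leave the cell cycle as they mature. Its levels were 5.07, 5.35 and 3.91 CPM in the LDH controls and 94.6, 105.6 and 90.7 CPM in the Acly controls. The groups lay far apart, and the lowest E18.5 library was above the highest P5 library by more than either group's range. The means were 4.78 ± 0.766 and 96.9 ± 7.75 CPM (SD, n = 3), a 20.3-fold difference. The log2 fold change was 4.34 ± 0.28 (standard error, as after every log2 fold change below; edgeR adjusted p = 2.10e-07), number 177 from the top of the 14251 genes tested.

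Mest encodes a hydrolase-like protein of the endoplasmic reticulum and is a classical paternally expressed fetal gene. It was at 56.8, 46.5 and 49.1 CPM in LDH controls against 361, 401 and 369 CPM in Acly controls. The 2 groups did not overlap, and both were tight, with SDs of 5.39 and 21.4 CPM. The mean at E18.5 was 7.42-fold that at P5, with a log2 fold change of 2.89 ± 0.18 (edgeR adjusted p = 1.55e-07). Mest overlaps Copg2 in the annotation, and whether counting used strand is not given in the sources used here. Igf2bp3 likewise overlaps Malsu1, so the same limit holds for its levels. Copg2 itself was not called between the controls (adjusted p = 0.69).

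Dlk1 was at 433, 474 and 701 CPM in LDH controls and at 2143, 1765 and 1826 CPM in Acly controls. LDH control replicate 3 was the highest at P5, yet stood well under every E18.5 library. The difference was 3.57-fold, with a log2 fold change of 1.83 ± 0.18 (edgeR adjusted p = 2.84e-06). Peg3, which encodes a zinc finger protein of mesenchymal and brain tissue, was at 112, 89.7 and 78.1 CPM at P5 and at 282, 413 and 320 CPM at E18.5. Its fold was close to that of Dlk1, at 3.63, with a log2 fold change of 1.86 ± 0.23 (adjusted p = 2.62e-05). These 4 genes are the members with at least a 2-fold difference.

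Plagl1 encodes ZAC1, a zinc finger transcription factor that regulates other imprinted genes, and its controls overlapped. It was at 368, 518 and 302 CPM in LDH controls and at 487, 606 and 689 CPM in Acly controls, where P5 replicate 2 was above E18.5 replicate 1. The log2 fold change of 0.59 ± 0.18 passed with an edgeR adjusted p of 0.0123. The call was lost without LDH control replicate 3 (adjusted p = 0.0568) and without Acly control replicate 3 (adjusted p = 0.0612). Grb10, an adaptor that dampens insulin and IGF receptor signaling, was at 798, 825 and 734 CPM against 802, 945 and 923 CPM. Its log2 fold change of 0.18 ± 0.10 was not called (adjusted p = 0.127).

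The Igf2bp genes differed little between the ages. Igf2bp1 was at 25.5, 26.1 and 24.6 CPM in LDH controls and at 37.5, 38.9 and 36.7 CPM in Acly controls, 2 narrow groups without overlap. Its log2 fold change was 0.57 ± 0.13 with an edgeR adjusted p of 0.00291. Igf2bp2 was at 122, 141 and 125 CPM against 157, 148 and 166 CPM, also without overlap, and its log2 fold change was 0.28 ± 0.07 (adjusted p = 0.00572). Igf2bp3 did not pass: 21.8, 25.2 and 21.9 CPM at P5 overlapped 24.9, 24.7 and 24.6 CPM at E18.5, and the log2 fold change was 0.11 ± 0.11 (adjusted p = 0.428). The summed level of the 3 genes was 75.1 ± 8.10 TPM in LDH controls and 102 ± 3.89 TPM in Acly controls. That of the 6 imprinted members was 1049 ± 82.4 and 3403 ± 69.6 TPM, of which Dlk1 alone made 574 and 2335 TPM.

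Between the controls, the choice of scaling changed the call of Grb10 only among the members, and the calls of some listed genes named below. Without TMM factors the median of all genes moved to 0.19 and the share of called genes that were higher at E18.5 went from 53.3% to 72.4%, while the limma test on FPKM with a pseudocount of 1 gave a median of 0.13 and 72.0%. The Grb10 difference then passed, at 0.35 with adjusted p of 0.0119 and 0.0114. No member changed direction in any of the 15 alternatives of this comparison. Over these alternatives the log2 fold change of Cdkn1c ran from 4.05 to 4.51, that of Mest from 2.79 to 3.07 and that of Igf2bp2 from 0.24 to 0.46.

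**Figure D2:**
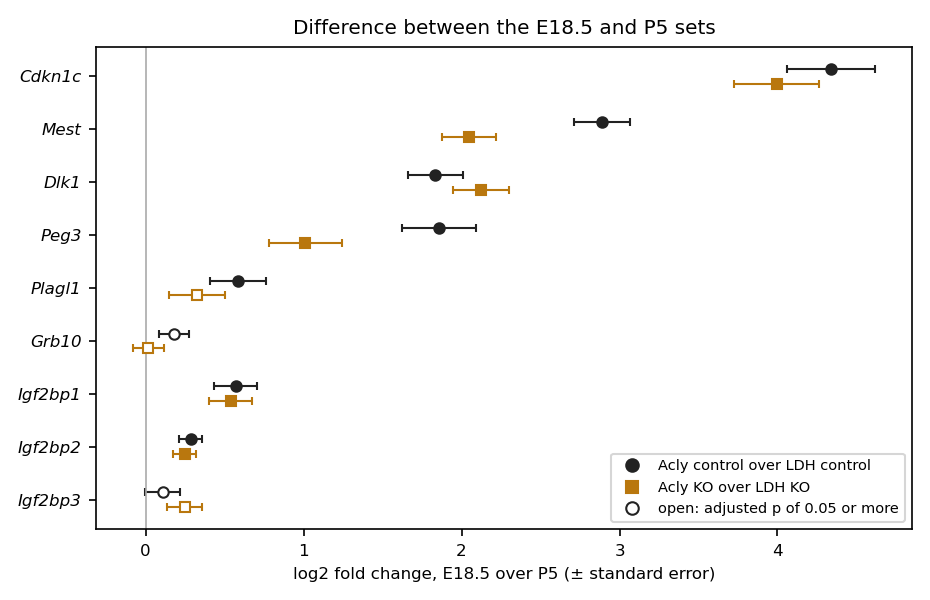
Log2 fold change of E18.5 over P5 (horizontal axis) for each member (vertical axis), in controls (black circles) and in knockouts (orange squares). Bars are standard errors, filled symbols passed an adjusted p of 0.05 by edgeR, and Cdkn1c is the farthest right at 4.34 and 4.0.

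The same 2 ages could be compared in the 6 knockout libraries, which share no sample with the controls but in which the deleted gene also differs. Summed Y-linked signal differed too, at most 0.0367 CPM in LDH knockouts and 0.0755, 74.3 and 82.8 CPM in Acly knockouts. Here 6 of the 9 members differed, all of them higher at E18.5, where 50.3% of all genes tested differed in either direction. In 7 members every Acly knockout was above every LDH knockout, as in 27.3% of all genes. Cdkn1c was at 5.38, 7.71 and 6.87 CPM in LDH knockouts and at 141, 59.7 and 118 CPM in Acly knockouts. Its log2 fold change was 4.0 ± 0.27 (edgeR adjusted p = 2.31e-07). The E18.5 libraries spread more widely than in the controls, since replicate 2 was lowest by far.

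Mest was at 86.5, 120 and 75.0 CPM against 445, 304 and 417 CPM in the knockouts, with a log2 fold change of 2.05 ± 0.17. Dlk1 was at 484, 634 and 716 CPM against 2516, 2687 and 2769 CPM, with 2.12 ± 0.18. Peg3 was at 136, 159 and 122 CPM against 343, 171 and 327 CPM, with 1.01 ± 0.23. None of these groups overlapped, but Peg3 in Acly knockout replicate 2 lay only just above the highest P5 library. The edgeR adjusted p was 1.08e-06 for Mest, 1.09e-06 for Dlk1 and 0.00255 for Peg3.

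Igf2bp1 and Igf2bp2 were again slightly higher at E18.5 in the knockouts, with log2 fold changes of 0.54 ± 0.14 and 0.25 ± 0.07 and edgeR adjusted p of 0.00498 and 0.0147. The call of Igf2bp2 was lost with a covariate for Y-linked signal (adjusted p = 0.0596), which among the knockouts in part follows the set. Plagl1, Grb10 and Igf2bp3 did not pass, with log2 fold changes of 0.32, 0.02 and 0.25 and adjusted p of 0.141, 0.893 and 0.0796. Igf2bp3 passed without Acly knockout replicate 2, at 0.35 (adjusted p = 0.0105), without scaling factors, at 0.40 (0.0139), and on FPKM (0.0472 and 0.044). Plagl1 passed when the 6 knockouts were fitted alone, at 0.32 (adjusted p = 0.0477), and without scaling factors, at 0.48 (0.0472).

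Markers of other cells in the ribs moved with age as well, and in bulk RNA fewer cells of a type and less RNA per cell cannot be told apart. The 9 fibroblast and perichondrium markers summed to 928 to 1457 CPM in LDH controls and to 4404.5 to 5206 CPM in Acly controls, 8 of the 9 being higher at E18.5 with a median log2 fold change of 2.18. All 10 skeletal muscle markers were higher, with sums of 26.2 to 47.6 against 273 to 349 CPM and a median of 3.82. All 5 endothelial markers were higher too, with 9.28 to 14.6 against 75.1 to 89.8 CPM. Chondrocyte markers summed to 10877 to 12600 CPM at P5 and 8542 to 9354 CPM at E18.5, although 6 of the 9 were called higher at E18.5 and 1 lower, so the sum and the count point different ways. Adipocyte markers summed to 1.27 to 2.28 CPM in LDH controls and 10.5 to 34.3 CPM in Acly controls, the 4 tested all being higher at E18.5. Osteoblast markers summed to 37.5 to 49.5 against 102 to 112 CPM. Smooth muscle and pericyte markers summed to 47.4 to 66.1 against 77.4 to 81.5 CPM. Immune marker sums overlapped, at 71.7 to 119 against 100 to 113 CPM. Among these markers, those at or under 3 counts in every library of a control group were Dmp1, Cnn1, Cd3e and Lep at P5 and Cd3e and Lep at E18.5.

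The part of these cells in the members' levels was not tested. Acly knockout replicate 2 had fibroblast and muscle sums of 1731 and 158 CPM, the lowest of the E18.5 libraries and above every P5 library (at most 1457 and 48.25 CPM). It was also the lowest of the 6 E18.5 libraries for Cdkn1c, Mest, Peg3, Plagl1, Grb10, Igf2bp1, Igf2bp2 and Igf2bp3, at 59.7, 304, 171, 350, 629, 26.6, 148 and 21.2 CPM, though not for Dlk1. The highest P5 values of Cdkn1c, Mest and Dlk1 were 7.71, 120 and 716 CPM, under those of this library. For Peg3, Igf2bp1 and Igf2bp2 it lay closer to the highest P5 values, which were 159, 26.1 and 141 CPM. For Plagl1, Grb10 and Igf2bp3 it lay under the highest P5 values of 518, 825 and 25.2 CPM.

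Other imprinted genes were examined with a list of 56, of which 46 were in the table and 42 were tested. Between the controls 16 were higher at E18.5, 6 were lower and 20 did not pass, so 52.4% differed where 55.0% of all genes did. The share is near the background. Of the 42 genes 10 were at least 2-fold higher, where 16.6% of all genes were, and 1 was at least 2-fold lower. The list's median log2 fold change was 0.29.

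Among them Zim1, a zinc finger gene next to Peg3, had a log2 fold change of 2.24 ± 0.37. Slc38a4, an amino acid transporter, had 1.89 ± 0.15, and Peg10, a retrotransposon-derived placental gene, had 1.79 ± 0.25. Lowest at E18.5 relative to P5, among called genes of the list with a mean of 5 CPM or more, were Ascl2, Sfmbt2 and Osbpl5, with -1.44 ± 0.20, -0.66 ± 0.20 and -0.56 ± 0.08. All 6 passed with edgeR adjusted p between 1.03e-06 and 0.0134, and Sfmbt2 lost its call without scaling factors (adjusted p = 0.0652), on FPKM (0.0885 and 0.142) and without Acly control replicate 3 (0.0585). Igf2 itself was at 1466, 1428 and 1517 CPM in LDH controls and at 4460, 4217 and 4215 CPM in Acly controls, with 1.55 ± 0.09 and an adjusted p of 7.08e-08. Igf2r, the maternally expressed receptor that clears IGF2, was also higher at E18.5, with 0.55 ± 0.12 and an adjusted p of 0.00128. Meg3, the noncoding neighbour of Dlk1, was not analysed here.

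**Figure D3:**
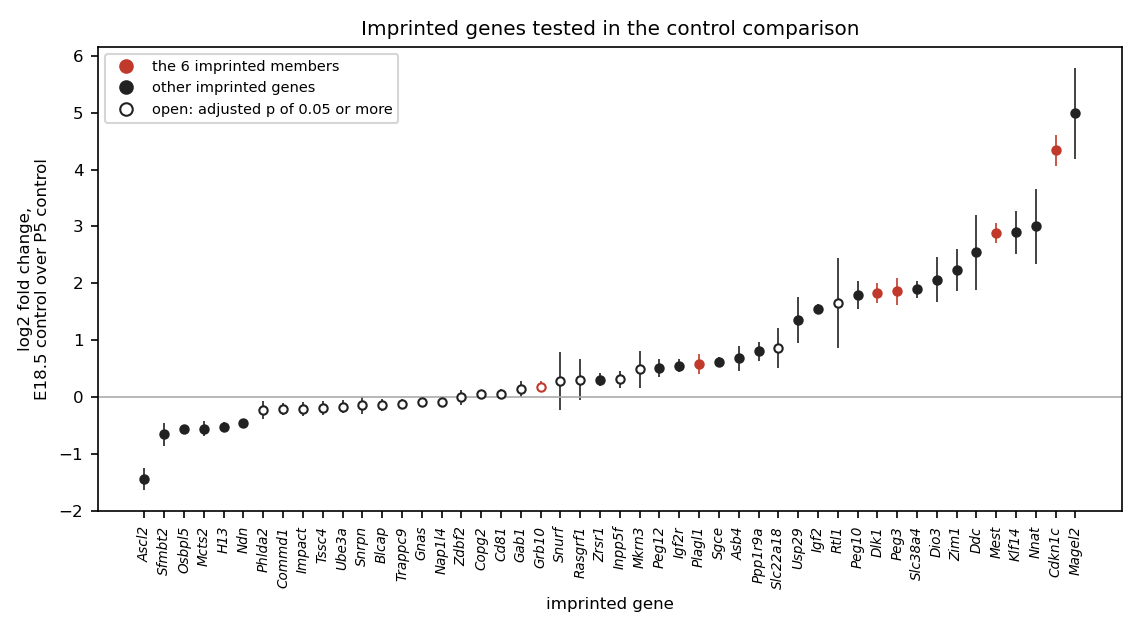
Log2 fold change of E18.5 over P5 controls (vertical axis, bars are standard errors) for the 6 imprinted members (red) and the 42 other imprinted genes tested (black), sorted by size along the horizontal axis. Filled symbols passed an adjusted p of 0.05, and Cdkn1c at 4.34 is second to Magel2, named after its value was seen and under 3 counts in each P5 control, while Ascl2 is lowest at -1.44.

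The let-7, LIN28 and fetal growth list had 18 tested genes of 21, of which 11 were higher at E18.5 and 4 lower (83.3% called, where 55.0% of all genes were). Ptn and Mdk, which encode the growth factors pleiotrophin and midkine, had log2 fold changes of 5.48 ± 0.48 and 3.66 ± 0.32, and Gpc3, a cell surface proteoglycan that restrains growth, had 2.58 ± 0.20. Ccnd1, Hmga2 and Dicer1 were lower at E18.5, with -1.83 ± 0.20, -1.05 ± 0.26 and -0.39 ± 0.09. Hmga2, a chromatin protein gene, held 4 let-7 seed matches in its 3′ UTR, as Igf2bp1 did. Between the controls Hmga2 was lower and Igf2bp1 higher at E18.5, and a relation to the matches was not tested. Hmga2 was at 193, 419 and 215 CPM in LDH controls. Between the knockouts across sets it did not pass, at -0.56 ± 0.26 (edgeR adjusted p = 0.0862). Lin28b was at 0 counts in all 6 control libraries and at no more than 2 counts in any knockout, at or under the 3 counts that can be shown. Dicer1 lost its call without scaling factors (adjusted p = 0.0729) and on FPKM (0.105 and 0.103).

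In the growth hormone and IGF axis list 6 of 10 genes were higher at E18.5 and 0 lower between the controls, a share of 60% that is near the 55.0% of all genes. Among them were Igf1 (3.51 ± 0.38), Ghr (0.92 ± 0.21) and Socs3 (0.85 ± 0.14). Between the knockouts the count was 2 of 10, where 50.3% of all genes differed. In the list of CDK inhibitors and cell cycle genes all 10 tested genes differed, 8 higher and 2 lower at E18.5, where 55.0% of all genes differed and 29.4% were higher. Ccnb1, Mki67 and Top2a, which mark dividing cells, had 3.66 ± 0.34, 3.42 ± 0.37 and 3.38 ± 0.28. The CDK inhibitor genes of this list differed in both directions. Cdkn1b (p27) and Cdkn2c (p18), named after their values were seen, were higher at E18.5 like Cdkn1c, with 0.63 ± 0.12 and 0.64 ± 0.18 (edgeR adjusted p = 0.000476 and 0.00776). Cdkn1a (p21) was lower at E18.5, from 3085 ± 159 to 1332 ± 96.5 CPM, with -1.21 ± 0.19, and Cdkn2b was lower with -0.57 ± 0.18. Cdkn2b lost its call without scaling factors (adjusted p = 0.0714), on FPKM (0.0671 and 0.0574), without LDH control replicate 3 (0.0714) and without Acly control replicate 2 (0.0512).

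Each knockout was then compared with its own controls, which also serve in the control comparison, so a high control value enters both. In the LDH knockout at P5, 1 of the 9 members passed, Mest, where 2.49% of all genes tested did. By DESeq2, which called 862 genes where edgeR called 332, 2 members passed. An unadjusted edgeR p under 0.05 was found for 3 members and for 19.6% of all genes. The median log2 fold change was -0.03 over the members and 0.01 over all genes.

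Mest was higher in the knockout: 86.5, 120 and 75.0 CPM against 56.8, 46.5 and 49.1 CPM in controls. Every knockout was above every control, as were the knockouts for 12.2% of all genes tested. The log2 fold change was 0.89 ± 0.16, a 1.85-fold ratio of means, with an edgeR adjusted p of 0.0232. The call was lost without knockout replicate 1 (adjusted p = 0.0645), control replicate 2 (0.0718) or control replicate 3 (0.0886), while the value stayed between 0.67 and 1.03 in all 15 alternatives. It remained under the mean of either E18.5 group, at 93.9 ± 23.5 CPM against 377 ± 21.4 CPM in Acly controls.

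Peg3 and Cdkn1c also had every knockout above every control without passing the test. Peg3 was at 136, 159 and 122 CPM against 112, 89.7 and 78.1 CPM, and its log2 fold change was 0.58 ± 0.14 (edgeR adjusted p = 0.059). It passed in 5 of 15 alternatives, among them DESeq2 (adjusted p = 0.00174) and the replicate block (0.033). Cdkn1c was at 5.38, 7.71 and 6.87 CPM against 5.07, 5.35 and 3.91 CPM, with 0.48 ± 0.19 and an adjusted p of 0.203.

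Dlk1, Plagl1, Grb10 and the 3 Igf2bp genes overlapped between LDH knockouts and controls, with log2 fold changes between -0.30 for Igf2bp1 and 0.19 for Dlk1 and adjusted p between 0.308 and 0.844. Igf2bp1 passed without knockout replicate 3, at -0.49 with an adjusted p of 0.0398. Plagl1 showed unequal spread: 341, 333 and 335 CPM in knockouts lay inside the range of 302 to 518 CPM of the controls.

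Of the 39 other imprinted genes tested in the LDH set, 3 rose and 0 fell by edgeR, where 2.49% of all genes differed. The count depended on the tool: DESeq2 called 7 of 45, and limma on FPKM with a pseudocount of 1 called 2 of 38. Igf2 was at 1856, 2206 and 2013 CPM in knockouts, above all 3 controls, with 0.46 ± 0.09 and an edgeR adjusted p of 0.0351. Slc38a4 rose with 0.78 ± 0.14 (adjusted p = 0.0243), and Nnat, named after its value was seen, with 3.48 ± 0.70 (adjusted p = 0.0351). Nnat was scarce, at 2.77, 1.57 and 0.892 CPM in knockouts and 0.373, 0.0374 and 0.0395 CPM in controls, and 2 of those controls lay under the level of 3 counts. The call of Igf2 was lost in 9 of 15 alternatives, among them the replicate block (adjusted p = 0.0743). Each of LDH control replicates 1, 2 and 3 and knockout replicates 1 and 2, when left out, ended it, with adjusted p from 0.0668 to 0.111. The call of Slc38a4 was lost without knockout replicate 1 (0.0832) or 2 (0.0826) or control replicate 2 (0.0522) or 3 (0.0532), and with the Y-linked covariate (0.175).

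In the LDH set the groups also differed in other measures. Summed Y-linked signal was 93.0, 102 and 0.590 CPM in controls 1 to 3 and at most 0.0367 CPM in the knockouts. With a covariate for it no member passed (edgeR, 3 with an unadjusted p under 0.05), Mest having an adjusted p of 0.331 and a value of 0.92. Genes called fell from 332 to 3. Every control was above every knockout in this signal, so the covariate largely follows genotype and this fit cannot tell them apart. Chondrocyte markers summed to 10877 to 12600 CPM in controls and 19811 to 29761 CPM in knockouts, and the 5 adipocyte markers to 1.27 to 2.28 and 11.9 to 45.5 CPM, with Lep at or under 3 counts in each library. Osteoblast markers summed to 37.5 to 49.5 CPM in controls and 10.2 to 20.3 CPM in knockouts, and smooth muscle and pericyte markers to 47.4 to 66.1 and 77.8 to 170.04 CPM. Fibroblast markers summed to 946 to 1084 CPM in knockouts, within the range of the controls. Their median log2 fold change was -0.45, with 1 of the 9 called lower and 0 higher, where 2.49% of all genes differed. The part of these in the members' values was not tested.

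**Figure D4:**
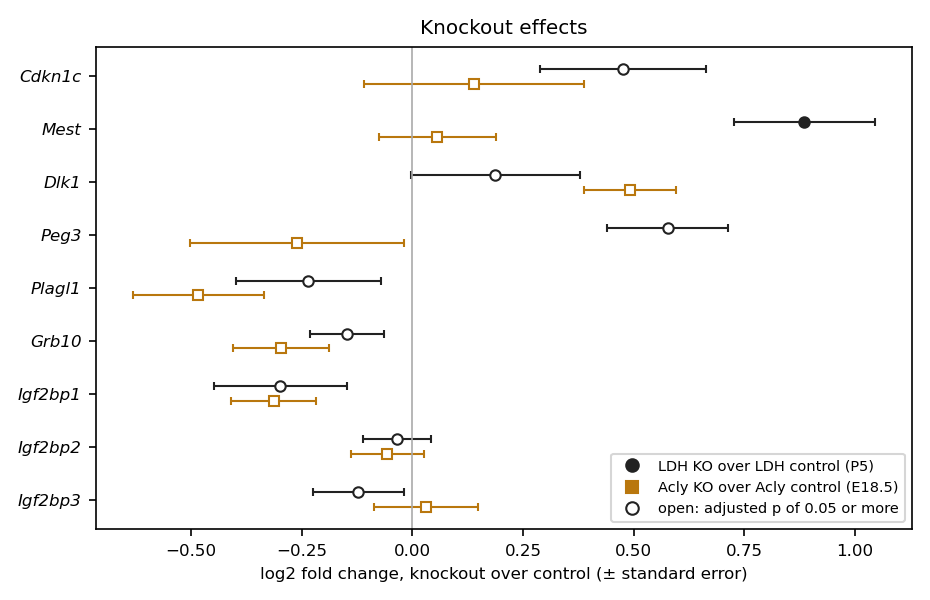
Log2 fold change of knockout over control (horizontal axis) for each member (vertical axis), for LDH at P5 (black circles) and Acly at E18.5 (orange squares). Bars are standard errors, and the only filled symbol, for an adjusted p under 0.05, is Mest in the LDH knockout at 0.89.

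In the Acly knockout at E18.5, 0 of the 9 members passed by edgeR, where 0.136% of all genes tested did. An unadjusted edgeR p under 0.05 was found for 4 members and for 15.8% of all genes. DESeq2, which called 253 genes where edgeR called 19, called 1 member, and limma on FPKM called 0. The median log2 fold change was -0.06 over the members and 0.00 over all genes. In 4 members the groups did not overlap, as in 22.1% of all genes tested.

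Dlk1 was at 2516, 2687 and 2769 CPM in Acly knockouts against 2143, 1765 and 1826 CPM in controls, with every knockout above every control. The ratio of means was 1.39 and the log2 fold change 0.49 ± 0.10, with an edgeR adjusted p of 0.149. It was the member called by DESeq2, at 0.50 with an adjusted p of 0.00162, and its value stayed between 0.44 and 0.58 in all 15 alternatives.

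Plagl1, Grb10 and Igf2bp1 had every Acly knockout below every control. Plagl1 was at 446, 350 and 467 CPM against 487, 606 and 689 CPM, with -0.48 ± 0.15. Grb10 was at 783, 629 and 743 CPM against 802, 945 and 923 CPM, with -0.30 ± 0.11. Igf2bp1 was at 31.9, 26.6 and 31.5 CPM against 37.5, 38.9 and 36.7 CPM, with -0.31 ± 0.10. The edgeR adjusted p of these 3 was between 0.244 and 0.273, and their sign was the same in all 15 alternatives.

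Cdkn1c, Mest, Peg3, Igf2bp2 and Igf2bp3 overlapped between Acly knockouts and controls, with adjusted p between 0.583 and 0.906. In Cdkn1c, Mest and Peg3 replicate 2 was the knockout farthest from the others. Cdkn1c was at 106 ± 41.9 CPM in knockouts and 96.9 ± 7.75 CPM in controls, and its log2 fold change was 0.14 with all libraries and 0.42 without replicate 2. Peg3 had -0.26 with all libraries and -0.01 without replicate 2. Fibroblast markers summed to 1731 to 4071 CPM in knockouts and 4404.5 to 5206 CPM in controls, and muscle markers to 158 to 305 and 273 to 349 CPM. Chondrocyte markers summed to 14175 to 16283 CPM in knockouts and 8542 to 9354 CPM in controls, and Y-linked signal was mixed in both groups. The part of these in the members' values was not tested. Of the 42 other imprinted genes 0 passed by edgeR in the Acly comparison, 7 having an unadjusted p under 0.05, and DESeq2 and limma on FPKM also called 0.

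Whether the knockout effects differed between the sets was tested directly as the LDH effect minus the Acly effect. None of the 9 members passed by edgeR, where 0.161% of all genes did, although 2 members, Peg3 and Mest, had the largest differences, at 0.85 ± 0.32 and 0.84 ± 0.23, with adjusted p of 0.301 and 0.193. An unadjusted edgeR p under 0.05 was found for 2 members and for 1855 of the 14251 genes tested. DESeq2, which called 217 genes where edgeR called 23, called 1 member, Mest, at 0.81 with an adjusted p of 0.0431. For Dlk1 the difference was -0.29 ± 0.24, and for the 3 Igf2bp genes it lay between -0.14 and 0.04.

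Likeness to other genes was described by Pearson's r of log2 CPM over the 12 libraries among the 10566 genes whose mean reached 5 CPM. Closest to Dlk1 were Cdk4, Rhno1 and Ltbp4, with r of 0.991, 0.986 and 0.985. Closest to Igf2bp3 were Lrig1, Mical2 and Asap2, with 0.928, 0.922 and 0.891. The libraries form 2 age sets, whose difference dominates r for Dlk1, so these values are a description without a test.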

How the data were processed

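RNA of 12 samples was sequenced after poly(A) selection at BGI, per the labels' protocols. The submitters' processing notes name HISAT2 2.0.4 and mm9. The counting program, annotation and use of strand are not given in the sources used here. The authors deposited expected counts per gene and sample, not normalized, per the file headers. They also deposited FPKM and TPM of the same samples; the deposited TPM were used for levels between genes and the deposited FPKM for an alternative test. The deposited averages were not used. Samples were grouped by title, and symbols turned into dates (26) were restored from Entrez identifiers.

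For the tests, the deposited counts were rounded and fitted by edgeR 4.0.16 under R 4.3.3 (TMM, filterByExpr, two-sided quasi-likelihood F tests, Benjamini-Hochberg adjustment over all genes tested, threshold 0.05). Each knockout was fitted with its control (6 samples); the control comparison, the knockouts across sets and the difference of effects came from a fit of all 12. The standard error is the size of the log2 fold change divided by the square root of F. Fits were tested on simulated data. Alternatives used DESeq2 1.42.0, limma 3.58.1 on log2(FPKM + 1 or 0.1), other scaling, no filter, the replicate number as a block, a Y-linked covariate, other samples in the fit and each replicate left out. The floor of 3 counts covers counting error only. No genome of the build mm9 was used, so gene coordinates are not given; RefSeq promoters and microRNAs are those of GRCm38.p6.

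The members and gene lists were chosen with earlier results of these data known. Named genes are the members, Igf2, Igf2r, Meg3 and Lin28b, and from each list the 3 largest rises and falls between controls and the 2 largest in each knockout, among called genes whose mean reached 5 CPM. For Dlk1 and Igf2bp3 the 3 genes of highest Pearson correlation were added.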

Additional observations from a re-analysis of the deposited data

Results flagged for a closer look

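Gpc3, a glypican gene of the fetal growth list, had every LDH knockout above every LDH control (42.0, 49.6 and 46.8 against 31.9, 25.8 and 25.0 CPM) and every Acly knockout below every Acly control (144, 75.4 and 137 against 167, 181 and 148 CPM). The difference of effects was 1.22 on the log2 scale with a standard error of 0.27, and it did not pass by edgeR, with an adjusted p of 0.101. In the LDH comparison Gpc3 passed with 0.74 ± 0.11 and an adjusted p of 0.0115, a call lost without control replicate 3 (0.0532), with 12 samples in the fit (0.0614) and with the Y-linked covariate (0.241). Acly knockout replicate 2 was the lowest of the 6 E18.5 libraries.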

How the results depend on the processing

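Replicate numbers did not pair the samples: deviations of same-numbered libraries correlated across genes at -0.13 to 0.05 for LDH and at -0.19 to 0.02 for Acly. With the replicate block 2 members passed in the LDH comparison, and the genes called were 8 in the Acly comparison and 6 for the difference of effects, against 19 and 23 without it. DESeq2 called 862 genes and 2 members in the LDH comparison (332 and 1 by edgeR), 253 genes and 1 member in the Acly comparison, and 217 genes and 1 member for the difference of effects. Without a filter on low counts the LDH comparison had 2 members and the Acly comparison 32 genes, without scaling factors the Acly comparison had 11 genes, and with 12 samples in the fit 31. With the Y-linked covariate 3 genes and 0 members passed in the LDH comparison (1781 genes and 3 members at an unadjusted p under 0.05), 6 genes in the Acly comparison and 6 for the difference of effects. Leaving out 1 library at a time gave 95 to 1068 genes and 0 to 3 members in the LDH comparison, 0 to 132 genes in the Acly comparison (0 without control replicate 1 or 3, with 2323 and 1008 at an unadjusted p under 0.05, and 132 without knockout replicate 2) and 5 to 143 for the difference of effects. The numbers of genes and members called between the controls and between the knockouts across sets stayed within 1.5 times in all alternatives run.

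Changes of sign were confined to values that did not pass. With the Y-linked covariate Grb10 across the knockouts was at -0.0053 (log2), and in the LDH comparison Dlk1 was at -0.41, Plagl1 at 0.35 and Igf2bp2 at 0.0333. In the Acly comparison Igf2bp3 was at -0.014 without scaling factors and at -0.032 and -0.0383 on FPKM with pseudocounts of 1 and 0.1, and Mest at -0.0098 and -0.01. With 1 library left out, Acly values ran from -0.11 to 0.42 for Cdkn1c, -0.0722 to 0.13 for Igf2bp3, -0.093 to 0.097 for Igf2r and -0.0419 to 0.20 for Mest. LDH values ran from -0.0778 to 0.027 for Igf2bp2 and -0.39 to 0.0006 for Plagl1. Grb10 across the knockouts ran from -0.0502 to 0.10, and the difference of effects from -0.16 to 0.18 for Igf2bp1 and -0.0029 to 0.0795 for Igf2bp2. The cause of these changes was not tested.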
